A study of Mus musculus with 9 samples.

Results

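The data described here are the liver expression signals of 6 arrays, 3 from mice fed a diet with permethrin and 3 from mice fed the control diet, out of 9 arrays in the series. The 6 arrays were taken by their sample labels, with earlier results of these data known. All mice were females of the outbred stock Crlj:CD1(ICR), were bought at 9 weeks of age and kept in quarantine for 1 week, and ate powdered food. The permethrin diet held 5000 ppm of the compound and the control diet 0 ppm, each given for 2 weeks. The remaining 3 arrays are from mice that received 5000 ppm clofibrate in the food over the same 2 weeks, and they are used to share the estimate of the spread and as 1 point of comparison. Each array was hybridized with labelled RNA from liver, and the labels call the 3 arrays of a group biological replicates without stating how many animals each holds. The p-values therefore set group differences against a spread between arrays, not between a known number of animals. That spread is shared over all 9 arrays and moderated by a trend with signal. GEO's organism, strain and source name give mouse for every sample, although 1 description field of the treated arrays has rats.

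Permethrin is a pyrethroid insecticide, which acts on the sodium channels of insect nerves and is broken down mainly in the liver. Clofibrate is a lipid-lowering drug that activates the nuclear receptor PPAR alpha. Hepatocytes take up sugar, amino acids and lipid from the gut, make most proteins of the blood plasma, and clear hormones and foreign compounds, and their gene expression follows feeding, hormones and nuclear receptors. Listed genes of fatty acid breakdown, peroxisomes and lipid droplets and listed targets of the regulators NRF2 and CAR have been set aside here. The lists need not hold every gene of these kinds. The account is of the other genes that changed.

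A signal is the linear value of 1 probe set on 1 array, in arbitrary units that are not comparable between genes. A log2 change is the difference between the permethrin and control means of log2(signal + 3.35), so it understates the change of dim genes. Its ± is the standard error, whereas ± after a mean signal is the SD, with n = 3 arrays per group. A gene is called when its limma p-value, adjusted over all tested probe sets, is under 0.05, and "rose" or "fell" is used for called genes. "Lost without" an array means that the call ended when the fit left that array out.

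Median signals were 14.3 to 17.4 on the 6 arrays. Correlations of log2 signals across probe sets, which are not independent, were 0.964 to 0.968 within the groups and 0.955 to 0.965 between them. The brightest probe set read 14387 to 14899 on control arrays and 12792 to 13409 on permethrin arrays, and the 18S ribosomal RNA probe set read 122 to 194 and 33.4 to 95.1. The part of these differences in the results was not tested. Markers of hepatocytes were bright on all arrays. The summed signal of the 9 tested of 10 was 67673 to 74817 in controls and 59400 to 64169 with permethrin, and 0 of the 9 were called. The summed markers of Kupffer cells, endothelium, stellate cells, T and NK cells, B and plasma cells, monocytes and neutrophils, bile duct, red cells and adipocytes overlapped between the groups, with 0 genes called. Few markers were tested for red cells (2 of 8), adipocytes (3 of 8), bile duct (3 of 7), T and NK cells (4 of 9) and B and plasma cells (4 of 7). The stellate sums barely overlapped, with a lowest control of 3312 and a highest permethrin array of 3321. Of 11 stellate and 10 endothelial markers, 2 each had an unadjusted p under 0.05 with a fall and 0 with a rise. In tissue RNA, fewer cells of a type and less RNA per cell cannot be told apart.

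Permethrin changed 265 of the 12477 genes tested, 2.12% of them. Of these, 160 rose (1.28%) and 105 fell (0.842%). The typical change was modest, with a median of 1.87-fold among genes that rose and 1.77-fold among those that fell. At least 2-fold changes were seen for 69 genes that rose and 33 that fell, and at least 4-fold changes for 19 and 3. The median control signal was 759 for genes that fell, 333 for those that rose and 96.7 for all genes. Controls are by definition the higher group for genes that fell and the lower for genes that rose. The order of these 2 medians is therefore partly set by the calls. In every called gene the permethrin and control arrays did not overlap, which was the case for 22.7% of all genes. Without regard to adjustment, 858 genes had a p under 0.05 with a rise and 1108 with a fall.

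The lists of fatty acid breakdown, peroxisomes and lipid droplets, NRF2 targets and CAR targets took up 56 of the called genes, 55 of which rose. The other 209 called genes split evenly, with 105 higher and 104 lower. They can still hold genes of these kinds that the 4 lists leave out. Abcg2 and Blvrb, described below, are in none of the 4. Leaving out any 1 of the 6 arrays kept 54 of these 209, 35 that rose and 19 that fell. The balance depends on how arrays are scaled. With each array centred on its median signal, 176 of all genes rose and 66 fell, and with scaling to the hybridization controls 144 rose and 21 fell, so that 87.3% of called genes rose in place of 60.4%. That scaling moved the median log2 change of all genes from -0.04 to 0.09. The function lists used below were chosen with earlier results of these data known. The share of a list that was called is therefore a description and not a test of the list.

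**Figure D1:**
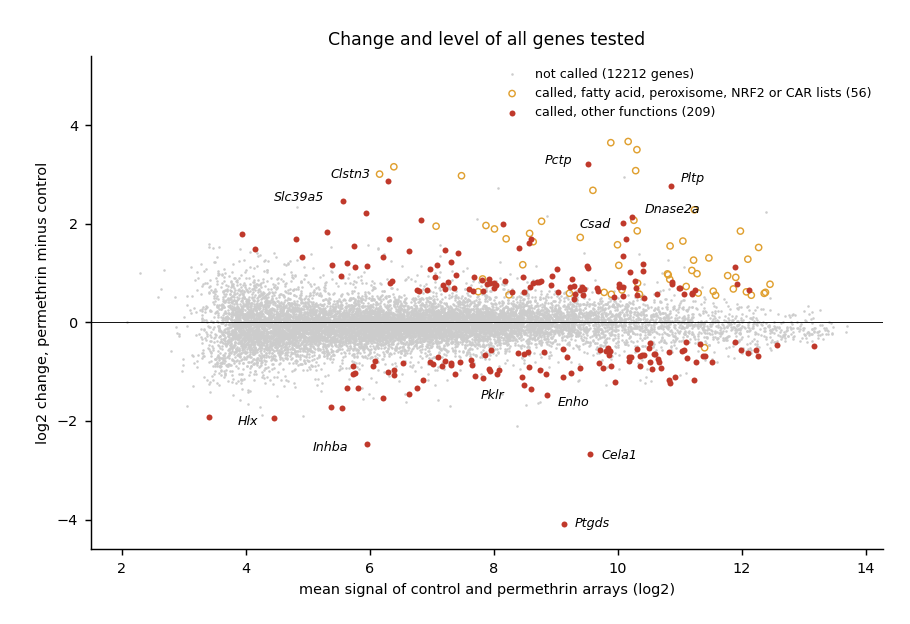
Each point is a gene, with its mean log2 signal over the 3 control and 3 permethrin arrays on the horizontal axis and its log2 change, permethrin minus control, on the vertical axis; grey points were not called, open orange circles were called and belong to the 4 lists set aside, and red points are the other 209 called genes. Called genes lie on both sides of 0, with 19 genes at or above a 4-fold rise and 3 at or above a 4-fold fall.

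The promoters of 4 genes are shown because Pctp and Clstn3 had the largest rises outside the lists set aside and Ptgds and Inhba were among the 3 largest falls. Their values follow in the next paragraphs. The letters are from RefSeq, build GRCm38.p6, and run 5′ to 3′ over the 250 bases before the annotated start. Capitals mark matches, on either strand, to the D-box TTANGTAA, bound by clock output factors, or to the core of the antioxidant response element TGANNNNGC.
Pctp (chr11:90002895-90003144, minus strand): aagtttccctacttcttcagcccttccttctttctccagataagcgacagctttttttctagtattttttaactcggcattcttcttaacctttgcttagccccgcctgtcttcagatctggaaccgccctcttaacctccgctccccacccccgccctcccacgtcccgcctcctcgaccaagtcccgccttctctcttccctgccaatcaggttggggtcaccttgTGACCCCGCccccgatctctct
Clstn3 (chr6:124464785-124465034, minus strand): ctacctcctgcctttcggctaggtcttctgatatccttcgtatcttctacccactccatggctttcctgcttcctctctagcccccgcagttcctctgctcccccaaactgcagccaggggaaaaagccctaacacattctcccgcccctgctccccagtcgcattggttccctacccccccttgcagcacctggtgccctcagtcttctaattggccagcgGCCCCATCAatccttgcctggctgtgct
Ptgds (chr2:25469750-25469999, minus strand): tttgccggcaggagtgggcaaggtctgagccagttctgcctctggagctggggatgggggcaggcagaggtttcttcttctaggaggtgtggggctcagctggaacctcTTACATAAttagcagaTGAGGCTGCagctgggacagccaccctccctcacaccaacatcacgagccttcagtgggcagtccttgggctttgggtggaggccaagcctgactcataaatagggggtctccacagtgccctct
Inhba (chr13:16011601-16011850, plus strand): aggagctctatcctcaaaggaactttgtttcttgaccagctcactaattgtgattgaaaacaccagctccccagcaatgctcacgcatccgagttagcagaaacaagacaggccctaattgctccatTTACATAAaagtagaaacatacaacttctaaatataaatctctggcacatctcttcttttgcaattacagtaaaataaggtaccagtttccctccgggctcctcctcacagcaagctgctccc
Capitals in Pctp and Clstn3 mark the antioxidant core, read on the opposite strand in Clstn3. The table holds a second start of Clstn3, whose 250 bases (chr6:124462745-124462994) have 0 antioxidant cores and 0 D-boxes. In Inhba capitals mark a D-box, and in Ptgds a D-box and then an antioxidant core. Cela1, the other of the 3 largest falls, is not shown and has 0 D-boxes and 0 antioxidant cores. Hlx, Bmf, Camk2b, Zfp429 and Nab2, also among the large falls, have 0 D-boxes. Over the whole 300-base windows, 250 before to 50 after the start, a D-box was in 4.85% of 103 windows of genes that fell, in 0.568% of 176 windows of genes that rose, and in 1.52% of the windows of all genes tested. The antioxidant core was in 34.0%, 48.3% and 42.5% in the same order, and the E-box CACGTG, to which the clock factors bind, in 8.74%, 9.66% and 9.65%. Over all 32851 windows of the table the shares were 2.32% for the D-box, 41.3% for the antioxidant core and 7.15% for the E-box. The 5 D-box windows among genes that fell are few, and a match is a description of letters.

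Proteins that carry or remodel membrane lipid outside the pathway of fatty acid oxidation were among the largest rises. Pctp, which moves phosphatidylcholine between membranes inside the cell, read 59.9, 399 and 97.1 in the controls and 1276, 1207 and 1337 with permethrin. Control replicate 2 stood above the other controls, and all permethrin arrays lay above it. The gene rose 9.33-fold (log2 change 3.22 ± 0.50, limma adjusted p = 0.00935), and without control replicate 2 the log2 change was 4.0. Pltp, which transfers phospholipid between lipoproteins in the plasma, read 425, 545 and 319.9 in the controls and 1308, 4116 and 4462 with permethrin. Permethrin replicate 1 was the lowest of its group and still above all controls, with a rise of 6.82-fold (log2 change 2.77 ± 0.39, limma adjusted p = 0.00474). Osbpl3, a sterol-binding protein of membrane contacts, read 17.3, 14.005 and 14.7 in the controls and 76.5, 48.7 and 66.4 with permethrin and rose 3.55-fold (log2 change 1.83 ± 0.24, limma adjusted p = 0.00277).

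Of the 37 tested genes of lipoproteins and sterol transfer, 3 rose and 1 fell (10.8% called, against 2.12% of all genes). The counts were the same without any 1 array. Nceh1, a hydrolase of cholesterol esters, rose 1.77-fold (limma adjusted p = 0.00855), on 1 of 3 probe sets. Over the mean of its probe sets the log2 change was 0.36 and not called. The member that fell was Apoa4, an apolipoprotein of lipoproteins from gut and liver. Its signals were 2779, 2237 and 2679.9 in the controls and 916, 1138 and 1224 with permethrin, with no overlap and a fall of 2.35-fold (log2 change -1.23 ± 0.17, limma adjusted p = 0.00399). The list's median log2 change was -0.19 against -0.04 for all genes, and 22 of the 37 genes had a negative log2 change.

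In phospholipid and sphingolipid metabolism, 2 of 59 tested genes rose and 0 fell (2 to 3 higher over the omissions of 1 array, median 0.09). These are 3.39% of the list, against 2.12% called over all genes. Besides Pctp, this was Chpt1, which makes phosphatidylcholine from diacylglycerol. It went from 829.9 ± 128 in controls to 1884 ± 143 with permethrin, a rise of 2.28-fold (log2 change 1.19 ± 0.18, limma adjusted p = 0.00802). Kdsr, Abhd6 and Pla1a were picked after their values were seen. Kdsr, a reductase of sphingolipid synthesis, rose 1.84-fold (limma adjusted p = 0.00611), and Abhd6, which splits monoacylglycerol, rose 2.15-fold (limma adjusted p = 0.000501). Pla1a, a secreted phospholipase, read 323, 310.0 and 345 in the controls and 150.1, 159 and 181 with permethrin and fell 1.98-fold (log2 change -0.99 ± 0.14, limma adjusted p = 0.0048). Pla2g6, a calcium-independent phospholipase A2, read 305, 298 and 319 in the controls and 465, 619 and 596 with permethrin on its brightest probe set and rose 1.8-fold (limma adjusted p = 0.0121). That call rests on 1 of 3 probe sets, ended without control replicate 1 or permethrin replicate 3 (limma adjusted p = 0.0565 and 0.0587), and turned to a log2 change of -0.20 on the probe set with the highest variance. The fatty acid elongase Elovl3, known as a male-biased liver gene, read 105, 132 and 71.2 in the controls and 595, 181 and 620.1 with permethrin. Permethrin replicate 2 lay near the controls and the other permethrin arrays far above them. The rise was 3.97-fold (log2 change 1.99 ± 0.42, limma adjusted p = 0.0422), and the call ended without control replicates 1, 2 or 3 or permethrin replicates 1 or 3 (limma adjusted p between 0.065 and 0.163).

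Several of the largest rises were in genes with no shared pathway, and most were dim in controls. Clstn3, a membrane protein of the calsyntenin family, read 20.2, 26.0 and 6.40 in the controls and 139, 94.1 and 183 with permethrin and rose 7.27-fold (log2 change 2.86 ± 0.36, limma adjusted p = 0.00239). Slc39a5, which imports zinc into cells, read 9.99, 9.65 and 13.6 in the controls and 82.6, 40.0 and 128 with permethrin, a rise of 5.5-fold (log2 change 2.46 ± 0.36, limma adjusted p = 0.00633). Chrna2, a subunit of nicotinic acetylcholine receptors, read 22.9, 13.9 and 22.2 in the controls and 92.1, 106 and 109 with permethrin. All 3 permethrin arrays were close together and far above the controls, a rise of 4.66-fold (log2 change 2.22 ± 0.19, limma adjusted p = 0.000164). Dnase2a, the lysosomal enzyme that digests DNA, was brighter, at 651, 419.6 and 296 in the controls and 1508, 2074 and 2273 with permethrin. It rose 4.42-fold (log2 change 2.14 ± 0.30, limma adjusted p = 0.00422). Bhlhb9 rose 4.21-fold (limma adjusted p = 0.00414), Golm2, a membrane protein of the Golgi, 3.25-fold (limma adjusted p = 0.00774), and Rarres1, a gene known to respond to retinoic acid, 3.25-fold (limma adjusted p = 0.00802).

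Less firm among the large rises were 3 dim or variable genes. Kbtbd11 read 3.97, 3.19 and 8.11 in the controls and 22.5, 20.8 and 33.3 with permethrin and rose 3.47-fold (limma adjusted p = 0.0317), a call that ended without control replicates 1 or 2 or permethrin replicates 1, 2 or 3 (limma adjusted p between 0.065 and 0.154). Tmc8, of a family of transmembrane channel-like proteins, rose 3.24-fold (limma adjusted p = 0.0479), and its call ended without control replicates 1, 2 or 3 or permethrin replicates 2 or 3 (limma adjusted p between 0.0541 and 0.17). Rcan2, a regulator of the phosphatase calcineurin, read 163, 317 and 110.0 in the controls and 464, 597 and 617 with permethrin and rose 3.06-fold (limma adjusted p = 0.0446), with the call lost without control replicates 1 or 3 or permethrin replicates 1, 2 or 3 (limma adjusted p between 0.0733 and 0.16).

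Of the transporters, the efflux pump Abcg2, which also exports porphyrins, read 422, 512 and 421 in the controls and 1049, 991 and 962 with permethrin. The groups were far apart, and the gene rose 2.21-fold (log2 change 1.15 ± 0.15, limma adjusted p = 0.00256). It was 1 of 3 genes that rose among 40 of haem, iron and oxygen carriage, where 0 fell (7.5% called, against 2.12% of all genes, and 1 to 3 higher over the omissions). Blvrb, a biliverdin reductase, rose 1.61-fold (limma adjusted p = 0.0177), which was lost without control replicates 1 or 2 or permethrin replicates 1 or 3 (limma adjusted p between 0.0637 and 0.077). Hfe, a regulator of iron uptake, rose 1.46-fold (limma adjusted p = 0.0436), which was lost without any 1 of the 6 arrays (limma adjusted p between 0.097 and 0.141). Among 46 genes of metals and antioxidant enzymes (4.35% called, against 2.12% of all genes), Slc39a5 rose and the zinc and manganese importer Slc39a8 fell, by 1.52-fold (limma adjusted p = 0.0308). The call of Slc39a8 ended without control replicates 1 or 3 or permethrin replicates 1, 2 or 3 (limma adjusted p between 0.0662 and 0.144).

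**Figure D2:**
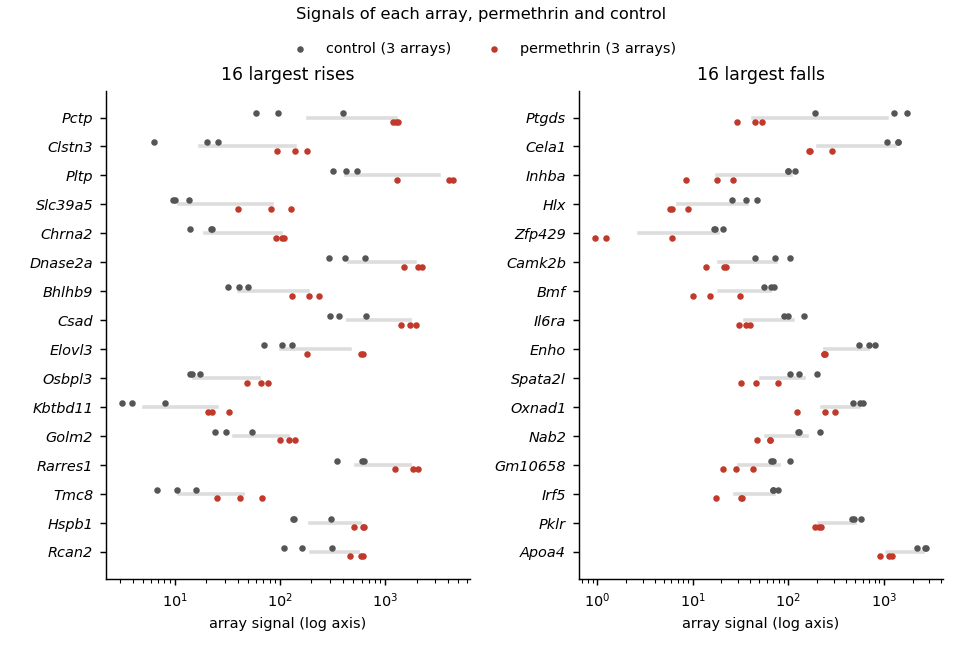
Signals of each control array (grey) and permethrin array (red) on a log axis for the 16 genes with the largest rises and the 16 with the largest falls outside the 4 lists set aside; grey bars join the group means. The groups do not overlap in any of these genes, a condition of their choice.

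Several of the largest falls were in genes of secreted signals and their receptors. Ptgds, which makes prostaglandin D2 and also carries lipophilic molecules, read 1767, 1269 and 191 in the controls and 45.2, 53.1 and 29.4 with permethrin. Control replicate 3 was far below the other controls and still above all permethrin arrays. The gene fell 17.0-fold (log2 change -4.08 ± 0.62, limma adjusted p = 0.008), with log2 changes of -3.47 when control replicate 1 was left out and -5.07 when control replicate 3 was. Both of its probe sets were called. Inhba, a subunit of activin, which restrains hepatocyte growth, read 100.3, 118 and 99.5 in the controls and 26.7, 8.49 and 18.2 with permethrin. It fell 5.53-fold (log2 change -2.47 ± 0.31, limma adjusted p = 0.00248). Inhba was the 1 gene called among 43 of activin, TGF-beta and BMP signalling (2.33%, against 2.12% of all genes, and 1 to 2 lower over the omissions). Among other activin genes, picked after their values were seen, Inhbb had a shift of -0.55 in log2 signal (limma adjusted p = 0.388), Inhbc a shift of -0.27 in log2 signal (limma adjusted p = 0.588), and the activin-binding protein Fst a shift of 0.58 in log2 signal (limma adjusted p = 0.362). The list's median was -0.25 against -0.04 for all genes.

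Enho encodes the secreted peptide adropin. It read 699, 544 and 813 in the controls and 245, 239 and 237 with permethrin, with the permethrin arrays nearly equal, and fell 2.79-fold (log2 change -1.48 ± 0.19, limma adjusted p = 0.00248). The receptor subunits of 2 inflammatory cytokines were lower. Il1rap, the shared subunit of interleukin-1 receptors, read 1680.5, 1654 and 1764 in the controls and 852, 1093 and 817 with permethrin and fell 1.86-fold (log2 change -0.89 ± 0.13, limma adjusted p = 0.00678). That call rests on 1 of 4 probe sets, and on the one with the highest variance the log2 change was -0.42 and not called. Il6ra, which binds interleukin-6, read 100.2, 90.8 and 145 in the controls and 40.0, 30.9 and 35.9 with permethrin and fell 2.92-fold (limma adjusted p = 0.0226), a call lost without control replicates 1 or 3 or permethrin replicates 1, 2 or 3 (limma adjusted p between 0.0517 and 0.109). These were the 2 called genes of 66 of cytokines and their receptors (3.03%, against 2.12% of all genes). The count was 1 to 2 lower over the omissions and 1 with scaling to the hybridization controls. Irf5, an interferon regulatory factor and the 1 called gene of 62 interferon and antigen presentation genes (1.61%, against 2.12% of all genes), fell 2.5-fold (limma adjusted p = 0.0341). That call ended without control replicates 1, 2 or 3 or permethrin replicates 2 or 3 (limma adjusted p between 0.0568 and 0.112).

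Growth hormone and IGF signalling leaned lower, with 32 of 41 tested genes at a negative log2 change. The median was -0.27 against -0.04 for all genes, and 2 genes fell (4.88%, against 0.842% of all genes). Stat5b, the transcription factor that carries the growth hormone signal, read 353, 281 and 321 in the controls and 168, 186 and 137 with permethrin and fell 1.93-fold (log2 change -0.95 ± 0.15, limma adjusted p = 0.0106), a call lost without control replicate 1 (limma adjusted p = 0.0609). Igfals, which holds IGF in large complexes in the blood, read 959, 1125 and 1102 in the controls and 618, 586 and 585 with permethrin. Its permethrin arrays were nearly equal and well below all controls, a fall of 1.77-fold (log2 change -0.83 ± 0.14, limma adjusted p = 0.0151). The call ended without control replicates 2 or 3 or permethrin replicate 3 (limma adjusted p = 0.0621, 0.0714 and 0.0657). Igf1 itself and Ghr, the growth hormone receptor, were looked up after the values were seen. Igf1 had a shift of -0.44 in log2 signal (limma adjusted p = 0.0912), and Ghr a shift of -0.31 in log2 signal (limma adjusted p = 0.164). Over the omissions 1 to 2 of the list's genes fell, and 1 fell with scaling to the hybridization controls. That scaling moved the list's median to -0.12, against 0.09 for all genes.

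Transcription factors leaned lower too, with 60 of 77 tested at a negative log2 change and a median of -0.20 against -0.04 for all genes. In this list 3 genes fell (3.90%, against 0.842% of all genes). Hlx, a homeobox factor, read 36.5, 26.2 and 47.6 in the controls and 9.02, 6.07 and 5.87 with permethrin. The permethrin values were below the detection filter of 15.6 on all 3 arrays, and the gene fell 3.82-fold (log2 change -1.93 ± 0.28, limma adjusted p = 0.0056). Foxa3, a forkhead factor of hepatocytes, read 466, 332 and 658 in the controls and 220.0, 209 and 212 with permethrin. Its controls were spread and its permethrin arrays were nearly equal, with a fall of 2.17-fold (limma adjusted p = 0.0433) that ended without control replicates 1 or 3 or permethrin replicates 1, 2 or 3 (limma adjusted p between 0.0941 and 0.145). Foxq1, a related forkhead gene, fell 2.1-fold (limma adjusted p = 0.0223), with the call lost without control replicates 1 or 3 or permethrin replicates 2 or 3 (limma adjusted p between 0.0716 and 0.107). Its call also ended on the probe set with the highest variance. The count was 1 to 3 over the omissions and 1 with scaling to the hybridization controls. That scaling moved the list's median to -0.05, against 0.09 for all genes. Nab2, a co-repressor of EGR factors, is in none of the lists. It read 131, 126 and 213 in the controls and 65.1, 64.6 and 47.0 with permethrin and fell 2.52-fold (log2 change -1.33 ± 0.21, limma adjusted p = 0.00957).

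Other large falls were in dim genes. Bmf, which promotes apoptosis, read 71.4, 55.5 and 66.0 in the controls and 10.2, 31.5 and 15.1 with permethrin and fell 3.27-fold (limma adjusted p = 0.0186), lost without control replicates 1 or 3 or permethrin replicate 3 (limma adjusted p = 0.094, 0.0843 and 0.0796). Camk2b, a calmodulin-dependent kinase, read 44.9, 105 and 73.4 in the controls and 22.2, 13.9 and 21.2 with permethrin and fell 3.33-fold (limma adjusted p = 0.0195), lost without control replicates 2 or 3 or permethrin replicates 2 or 3 (limma adjusted p between 0.0592 and 0.0928). Oxnad1 fell 2.56-fold (limma adjusted p = 0.0281), lost without control replicates 1, 2 or 3 or permethrin replicate 2 (limma adjusted p between 0.0522 and 0.121). Spata2l fell 2.73-fold (limma adjusted p = 0.0387), lost without control replicates 1 or 3 or permethrin replicates 1 or 3 (limma adjusted p between 0.101 and 0.151), and Gm10658 fell 2.51-fold (limma adjusted p = 0.025), lost without control replicates 1 or 3 or permethrin replicates 2 or 3 (limma adjusted p between 0.0684 and 0.113). Zfp429, a zinc finger gene, fell 3.77-fold (limma adjusted p = 0.0494) to values of 0.96 to 6.13, far under the filter, and was lost without control replicates 1, 2 or 3 or permethrin replicates 2 or 3 (limma adjusted p between 0.104 and 0.157).

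Cela1, an elastase of the pancreatic type, read 1076, 1399 and 1409 in the controls and 287, 165 and 169 with permethrin. All permethrin arrays were far below the lowest control, and the fall was 6.33-fold (log2 change -2.66 ± 0.20, limma adjusted p = 6.02e-05). The signals were 204, 216 and 179 with clofibrate, also far below the controls. Cela1 made up most of the summed signal of the 6 tested pancreas markers, which was 1225 to 1540 in controls and 234 to 371 with permethrin. The other 5, Cela2a, Cela3b, Prss2, Cel and Clps, summed to 106 to 149 in controls and 69.6 to 99.5 with permethrin, and 0 of them were called. These sums do not overlap either. The part of pancreas RNA in the fall of Cela1 was not tested.

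Sugar metabolism had falls in enzymes of fructose and pyruvate handling and rises in 2 other genes. Of 49 tested genes of glucose, fructose and glycogen metabolism, 5 fell and 2 rose (14.3% called, against 2.12% of all genes). The counts were 2 to 4 lower and 1 to 2 higher over the omissions, and 2 lower and 1 higher with scaling to the hybridization controls. Pklr, the pyruvate kinase of liver and the last step of glycolysis, read 460.5, 574 and 484 in the controls and 193, 210.4 and 222 with permethrin. It fell 2.4-fold (log2 change -1.26 ± 0.15, limma adjusted p = 0.00206), and 2 of its 3 probe sets were called. Khk, which phosphorylates fructose as the first step of its breakdown, read 3273, 2879.8 and 3206 in the controls and 1837, 1530.3 and 2021 with permethrin and fell 1.74-fold (log2 change -0.80 ± 0.11, limma adjusted p = 0.00533), a call that ended with scaling to the hybridization controls. Tkfc, which acts later in the same path on glyceraldehyde, read 435, 440.3 and 434 in the controls and 262, 258 and 323 with permethrin. Its controls were nearly identical and its fall was 1.55-fold (limma adjusted p = 0.0328), lost without control replicates 1, 2 or 3 or permethrin replicates 1 or 2 (limma adjusted p between 0.0911 and 0.118). Tkfc, Gys2 and Aldoa were picked after their values were seen.

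Glycogen genes moved in both directions. Ppp1r3b, which brings a phosphatase to glycogen and favours its synthesis, read 1660.4, 1170.5 and 1315 in the controls and 470.5, 544 and 804 with permethrin and fell 2.31-fold (log2 change -1.21 ± 0.19, limma adjusted p = 0.00994), lost without control replicate 1 (limma adjusted p = 0.0541). Gys2, the glycogen synthase of liver, read 393, 466 and 380.4 in the controls and 596, 619.7 and 674 with permethrin and rose 1.53-fold (limma adjusted p = 0.0384), a call lost without control replicates 1 or 3 or permethrin replicates 1, 2 or 3 (limma adjusted p between 0.0692 and 0.154). Slc37a4, the transporter of glucose 6-phosphate into the endoplasmic reticulum for glucose release, fell 1.73-fold (limma adjusted p = 0.0169), lost without control replicates 1 or 3 or permethrin replicates 1 or 3 (limma adjusted p between 0.0594 and 0.0756). Aldoa, the aldolase of muscle and other tissues, read 381, 344 and 345 in the controls and 559, 615 and 655 with permethrin and rose 1.7-fold (log2 change 0.77 ± 0.11, limma adjusted p = 0.00549). The call holds for 2 of 5 probe sets of Aldoa, and over the mean of all 5 the log2 change was 0.47 and not called.

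Breakdown of amino acids was lower in 6 of 56 tested genes and higher in 1 (12.5% called, against 2.12% of all genes). The list was chosen with earlier results of these data known, so this share is a description. Of the 56, 41 had a negative log2 change, and the median was -0.19 against -0.04 for all genes. Over the omissions 1 to 5 fell, and 1 fell with scaling to the hybridization controls. The first 3 enzymes of histidine breakdown all fell. Hal, histidine ammonia lyase, read 2297, 1992 and 2208 in the controls and 1165, 1221 and 1017 with permethrin and fell 1.91-fold (log2 change -0.93 ± 0.15, limma adjusted p = 0.012). Uroc1, which takes the product of Hal, fell 1.57-fold (limma adjusted p = 0.0491), and Amdhd1, the third enzyme, fell 1.61-fold (limma adjusted p = 0.0133). Ftcd, which ends the pathway and was picked after its value was seen, had a shift of -0.39 in log2 signal (limma adjusted p = 0.114). The calls ended for Hal without control replicates 1 or 3 or permethrin replicate 3 (limma adjusted p = 0.066, 0.0538 and 0.0586), for Uroc1 without control replicates 1, 2 or 3 or permethrin replicates 2 or 3 (limma adjusted p between 0.0892 and 0.186) and for Amdhd1 without control replicate 1 or permethrin replicate 3 (limma adjusted p = 0.0754 and 0.0648). Uroc1, Amdhd1 and Cdo1, described next, were picked after their values were seen.

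Opposite directions were seen within the path from cysteine to taurine, a compound that the liver joins to bile acids. Cdo1, which oxidizes cysteine in its first step, read 6684, 5693 and 5763 in the controls and 3874, 3634 and 3844 with permethrin and fell 1.59-fold (log2 change -0.67 ± 0.10, limma adjusted p = 0.00742). Csad, which acts on the product of Cdo1, read 668, 367 and 299 in the controls and 1422, 1744 and 1991 with permethrin. The lowest permethrin array was far above the highest control, and Csad rose 4.04-fold (log2 change 2.01 ± 0.25, limma adjusted p = 0.00239). Both calls held without any 1 array, and that of Cdo1 ended with scaling to the hybridization controls.

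Prodh, which starts the breakdown of proline, read 1449, 989.7 and 1243 in the controls and 646, 776 and 566 with permethrin and fell 1.84-fold (limma adjusted p = 0.022). Agxt, which removes glyoxylate by transamination, read 3312, 3826 and 4075 in the controls and 2021, 2397 and 2009 with permethrin and fell 1.74-fold (limma adjusted p = 0.0176). The calls ended for Prodh without control replicates 1 or 3 or permethrin replicates 1 or 3 (limma adjusted p between 0.0652 and 0.102) and for Agxt without control replicates 2 or 3 or permethrin replicates 1 or 3 (limma adjusted p between 0.0625 and 0.0897). In one-carbon and methionine metabolism 2 of 41 genes fell and 1 rose (7.32% called, against 2.12% of all genes). The counts were 0 to 2 lower and 1 higher over the omissions, and 0 lower with scaling to the hybridization controls. Chdh, which oxidizes choline on the way to betaine, read 1352, 1347 and 1388 in the controls and 2267, 2657 and 2284 with permethrin, and its nearly equal controls were far below all permethrin arrays. It rose 1.76-fold (log2 change 0.81 ± 0.10, limma adjusted p = 0.002). Cbs, which joins homocysteine and serine, fell 1.64-fold (limma adjusted p = 0.015), lost without control replicates 1 or 3 or permethrin replicates 1 or 3 (limma adjusted p between 0.0558 and 0.0825), and Pipox, which oxidizes sarcosine and pipecolate, fell 1.52-fold (limma adjusted p = 0.0141), lost without control replicates 1 or 3 or permethrin replicate 3 (limma adjusted p = 0.0706, 0.0734 and 0.0713). Gulo, the last enzyme of vitamin C synthesis, was picked after its values were seen. It read 2066, 2401 and 3069.6 in the controls and 1352, 959.7 and 1025 with permethrin and fell 2.25-fold (log2 change -1.17 ± 0.19, limma adjusted p = 0.00976).

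Most genes of plasma proteins made by hepatocytes had a negative log2 change. Of 56 tested genes of complement, coagulation and the acute phase, 53 had a negative log2 change. After adjustment 5 fell (8.93% called, against 2.12% of all genes). With an unadjusted p under 0.05, 30 had a fall and 0 a rise, against 1108 and 858 of all 12477 genes. The median was -0.31 against -0.04 for all genes. Over the omissions 2 to 4 genes fell, and 2 fell with scaling to the hybridization controls, under which the median was -0.26 relative to the median gene. Coagulation factor F7 read 1124, 1065 and 1236 in the controls and 663, 575 and 551 with permethrin and fell 1.91-fold (log2 change -0.93 ± 0.11, limma adjusted p = 0.00173). The complement protease C1s1 read 1822, 2110.0 and 1969.8 in the controls and 861, 1012 and 1203 with permethrin and fell 1.93-fold (log2 change -0.95 ± 0.13, limma adjusted p = 0.00395). Both held without any 1 array. Coagulation factor F5 fell 1.5-fold (limma adjusted p = 0.014), lost without control replicates 1 or 3 or permethrin replicate 1 (limma adjusted p = 0.0825, 0.0734 and 0.0529). The complement genes Cfhr2 and C8g, the second picked after its values were seen, fell 1.5-fold (limma adjusted p = 0.0422) and 1.47-fold (limma adjusted p = 0.0369), and were lost without control replicates 1, 2 or 3 or permethrin replicates 1 or 3 (limma adjusted p between 0.0848 and 0.168) and without control replicates 1, 2 or 3 or permethrin replicates 2 or 3 (limma adjusted p between 0.0535 and 0.139).

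Protease inhibitors showed the lowest median of the 50 function lists, -0.33 over 39 genes, against -0.04 for all genes. Of the 39, 31 were negative and 2 fell (5.13% called, against 2.12% of all genes). The count was 2 to 3 over the omissions and 0 with scaling to the hybridization controls. Serpinf2, the inhibitor of plasmin, read 5179.8, 4866 and 5898 in the controls and 3353, 3299 and 3638 with permethrin and fell 1.55-fold (log2 change -0.63 ± 0.09, limma adjusted p = 0.00722). Itih1, a heavy chain of inter-alpha-trypsin inhibitor, read 3129, 3076 and 3588 in the controls and 1874, 2041 and 2196 with permethrin and fell 1.6-fold (log2 change -0.68 ± 0.10, limma adjusted p = 0.00745). Tfpi2, a related type of inhibitor of serine proteases, moved the other way, from 1566 ± 182 in controls to 2528 ± 169.9 with permethrin. It was picked after its values were seen and rose 1.62-fold (log2 change 0.69 ± 0.10, limma adjusted p = 0.00774). Lect2, a chemotactic protein secreted by hepatocytes and likewise picked, read 1801, 1743 and 2673 in the controls and 1323, 1083 and 1082 with permethrin and fell 1.75-fold (limma adjusted p = 0.0361), lost without control replicates 1 or 3 or permethrin replicates 2 or 3 (limma adjusted p between 0.0761 and 0.142).

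The summed hepatocyte markers, which include plasma proteins such as albumin, were also lower with permethrin, as were the highest signals of the arrays. Alb, looked up after the values were seen, had a shift of -0.14 in log2 signal (limma adjusted p = 0.574). The part of these shifts in the falls of plasma proteins was not tested.

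**Figure D3:**
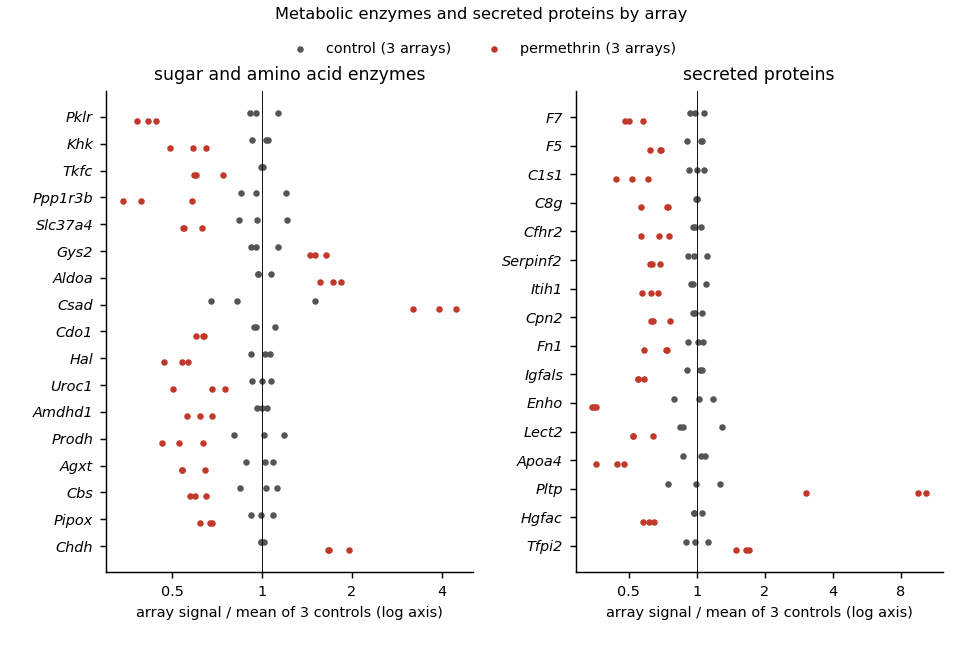
Signal of each control (grey) and permethrin (red) array divided by the mean of the 3 controls, on a log axis, for called genes of sugar and amino acid metabolism (left) and for secreted proteins (right). Permethrin arrays lie above all controls for Gys2, Aldoa, Csad, Chdh, Pltp and Tfpi2 and below all controls for the other genes drawn.

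Of matrix genes 7.02% and of adhesion genes 3.45% were called, against 2.12% of all genes. In the extracellular matrix list 3 of 57 fell and 1 rose (0 to 2 lower and 0 to 1 higher over the omissions, 0 lower with scaling to the hybridization controls). Fn1, fibronectin, which hepatocytes also secrete into plasma, read 4890.2, 4429 and 5129 in the controls and 2820.5, 3517 and 3542 with permethrin and fell 1.47-fold (limma adjusted p = 0.0287), lost without control replicates 1 or 3 or permethrin replicates 1 or 3 (limma adjusted p between 0.0589 and 0.131). The proteoglycan Sdc2 fell 1.57-fold (limma adjusted p = 0.015), lost without control replicates 1 or 3 or permethrin replicate 3 (limma adjusted p = 0.0655, 0.0765 and 0.0729), and Gpc4 fell 1.46-fold (limma adjusted p = 0.0259), lost without any 1 of the 6 arrays (limma adjusted p between 0.0637 and 0.0979). Hspg2, perlecan, rose 1.6-fold (limma adjusted p = 0.0373), lost without any 1 of the 6 arrays (limma adjusted p between 0.0713 and 0.124). Over the mean of its probe sets the log2 change was 0.10 and not called. Of 58 adhesion genes Pcdh1 and Cdh2 fell, with values of 1.82-fold (limma adjusted p = 0.0267) and 1.43-fold (limma adjusted p = 0.0348), lost without control replicates 1 or 3 or permethrin replicates 1 or 3 (limma adjusted p between 0.0833 and 0.121) and without control replicates 1, 2 or 3 or permethrin replicates 1 or 3 (limma adjusted p between 0.0932 and 0.135).

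Receptor tyrosine kinases and growth factors had 2 of 44 genes lower and 0 higher (4.55% called, against 2.12% of all genes). Hgfac, a protease that activates hepatocyte growth factor, read 1408, 1404 and 1515 in the controls and 886, 831 and 931 with permethrin and fell 1.63-fold (limma adjusted p = 0.0191), lost without any 1 of the 6 arrays (limma adjusted p between 0.0566 and 0.0947). Ephb4, an ephrin receptor, fell 1.84-fold (limma adjusted p = 0.0294), lost without control replicates 1, 2 or 3 or permethrin replicates 2 or 3 (limma adjusted p between 0.0684 and 0.108). In the Wnt, Notch and Hedgehog list 1 of 48 fell (2.08% called, against 2.12% of all genes). This was Notum, which inactivates Wnt proteins, at 1.82-fold (limma adjusted p = 0.0489), lost without any 1 of the 6 arrays (limma adjusted p between 0.0589 and 0.178).

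Of 60 solute carriers 1 rose and 1 fell (3.33% called), and of 48 proteases 1 rose and 2 fell (6.25%), against 2.12% of all genes. Slc16a13 is described with the clofibrate comparison. Slc6a13, a carrier of GABA and taurine, fell 1.45-fold (limma adjusted p = 0.0465), lost without any 1 of the 6 arrays (limma adjusted p between 0.0633 and 0.184). Enpep, an aminopeptidase that trims angiotensin, read 1978, 1937 and 2105 in the controls and 1128, 1246 and 1230.4 with permethrin and fell 1.67-fold (limma adjusted p = 0.024), lost without any 1 of the 6 arrays (limma adjusted p between 0.0576 and 0.109). Cpn2, a subunit of plasma carboxypeptidase N, fell 1.48-fold (limma adjusted p = 0.027), lost without control replicates 1, 2 or 3 or permethrin replicates 1 or 3 (limma adjusted p between 0.0785 and 0.124). Dpp7, a dipeptidyl peptidase, rose 1.61-fold (limma adjusted p = 0.0424), lost without control replicates 1, 2 or 3 or permethrin replicates 1 or 3 (limma adjusted p between 0.0637 and 0.165).

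Surface receptors and their second messengers had 2 genes higher and 2 lower of 43 (9.30% called, against 2.12% of all genes). Pde4d, which breaks down cyclic AMP, read 36.7, 35.5 and 40.3 in the controls and 92.5, 83.7 and 82.9 with permethrin. The groups were tight and far apart, a rise of 2.2-fold (log2 change 1.13 ± 0.15, limma adjusted p = 0.00271). P2ry14, a receptor for UDP-glucose, rose 2.29-fold (limma adjusted p = 0.0429), lost without control replicates 1 or 3 or permethrin replicates 1, 2 or 3 (limma adjusted p between 0.0972 and 0.136). Avpr1a, the vasopressin receptor of hepatocytes, went from 313 ± 45.0 in controls to 141 ± 15.5 with permethrin and fell 2.19-fold (limma adjusted p = 0.0188), lost without control replicates 1 or 3 or permethrin replicates 1 or 3 (limma adjusted p between 0.0637 and 0.0952). Gprc5c fell 2.26-fold (limma adjusted p = 0.0222), lost without control replicates 2 or 3 or permethrin replicates 2 or 3 (limma adjusted p between 0.0723 and 0.108).

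Enzymes of retinoid metabolism changed in both directions. Of 39 tested, 3 rose and 2 fell (12.8% called, against 2.12% of all genes). The counts were 1 to 3 and 1 to 2 over the omissions, and 3 and 0 with scaling to the hybridization controls. Retsat, which saturates retinol, read 2674, 2438 and 2084 in the controls and 5047, 5413 and 5216 with permethrin and rose 2.19-fold (log2 change 1.13 ± 0.12, limma adjusted p = 0.000615), with both probe sets called. Rdh16, a retinol dehydrogenase, read 289, 351 and 357 in the controls and 652, 761 and 702 with permethrin and rose 2.12-fold (limma adjusted p = 0.0151), lost without control replicate 1 or permethrin replicates 2 or 3 (limma adjusted p = 0.0814, 0.0552 and 0.0612). Hsd17b11, a lipid droplet dehydrogenase, rose 1.7-fold (limma adjusted p = 0.0138), lost without control replicates 2 or 3 or permethrin replicates 2 or 3 (limma adjusted p between 0.0504 and 0.0656). Rdh5, another retinol dehydrogenase, read 179, 217 and 279 in the controls and 109, 91.2 and 120.2 with permethrin and fell 2.05-fold (log2 change -1.04 ± 0.17, limma adjusted p = 0.0135), lost without control replicate 3 (limma adjusted p = 0.0545). Stra6l, a receptor for retinol-binding protein, fell 1.59-fold (limma adjusted p = 0.00845), lost without control replicate 1 (limma adjusted p = 0.0541). Stra6l was picked after its values were seen, as was Rdh16f2, a close relative of Rdh16. Rdh16f2 read 3495, 3240.5 and 3237 in the controls and 1446, 1679.8 and 1316 with permethrin, opposite to Rdh16, and fell 2.25-fold (limma adjusted p = 0.0204), lost without control replicates 1, 2 or 3 or permethrin replicates 1 or 3 (limma adjusted p between 0.0619 and 0.0945). Whether the probes fully separate the signals of the 2 relatives was not tested.

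Steroid genes gave 1 rise and 1 fall among 33 (6.06% called, against 2.12% of all genes). Hsd17b12, a reductase of fatty acid elongation and steroid metabolism, read 1304, 1482 and 1362 in the controls and 2406, 2321 and 2432 with permethrin. The groups were tight and far apart, a rise of 1.73-fold (log2 change 0.79 ± 0.09, limma adjusted p = 0.00168) on both probe sets. Hsd11b1, which makes active glucocorticoid in the liver, read 7135, 7036 and 6891 in the controls and 5408, 5240.0 and 4666 with permethrin. It fell 1.38-fold (limma adjusted p = 0.0374), lost without any 1 of the 6 arrays (limma adjusted p between 0.0619 and 0.157). In the list of nucleotide and NAD metabolism 3 of 61 rose and 1 fell (6.56% called, against 2.12% of all genes, and 1 to 3 higher and 0 lower over the omissions). Entpd5, which hydrolyses nucleotides in the endoplasmic reticulum and is also in the list of NRF2 targets set aside, read 1499.6, 1582 and 1480.2 in the controls and 2911, 3236 and 3344 with permethrin and rose 2.08-fold (log2 change 1.05 ± 0.10, limma adjusted p = 0.000215) on 5 of 5 probe sets. Hprt, of purine salvage, rose 1.65-fold (limma adjusted p = 0.0148), lost without control replicates 1, 2 or 3 or permethrin replicate 3 (limma adjusted p between 0.0529 and 0.0754).

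Genes of protein removal and folding leaned higher, as they did with clofibrate against control (list medians of 0.26 for the proteasome and 0.22 for heat shock). In the proteasome list 34 of 42 genes had a positive log2 change, with a median of 0.20 against -0.04 for all genes. An unadjusted p under 0.05 with a rise was seen for 19, against 858 of all 12477 genes. After adjustment 4 rose and 0 fell (9.52% called, against 2.12% of all genes). Over the omissions 1 to 3 rose, and 2 rose with scaling to the hybridization controls. Psma5, a subunit of the core particle, read 1631, 1626 and 1393 in the controls and 2576, 2546 and 2372 with permethrin and rose 1.61-fold (log2 change 0.69 ± 0.11, limma adjusted p = 0.0087) on both probe sets. The regulatory particle subunit Psmd4 rose 1.63-fold (limma adjusted p = 0.0136), lost without control replicate 3 or permethrin replicate 2 (limma adjusted p = 0.0654 and 0.0508). The calls of Psmd5, a chaperone of assembly, and of Psmd14, a deubiquitinase of the particle, ended without control replicates 1 or 3 or permethrin replicates 1, 2 or 3 (limma adjusted p between 0.061 and 0.162) and without any 1 of the 6 arrays (limma adjusted p between 0.0713 and 0.187). Psmb5, a catalytic subunit looked up after the values were seen, had a shift of 0.05 in log2 signal (limma adjusted p = 0.883).

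Of 48 heat shock and co-chaperone genes, 41 had a positive log2 change, with the highest median of the function lists at 0.24, against -0.04 for all genes. Of the 48, 2 rose (4.17% called, against 2.12% of all genes, and 0 to 2 over the omissions). The small heat shock protein Hspb1 read 306, 137 and 134 in the controls and 508, 615 and 632 with permethrin. Control replicate 1 stood above the other controls and below all permethrin arrays, a rise of 3.23-fold (log2 change 1.69 ± 0.30, limma adjusted p = 0.0183) that ended without control replicates 2 or 3 or permethrin replicates 2 or 3 (limma adjusted p between 0.061 and 0.0876). Hsp90aa1 read 3154, 3707 and 3537 in the controls and 4844, 5688 and 5775 with permethrin and rose 1.57-fold (limma adjusted p = 0.0165), lost without control replicates 1 or 3 or permethrin replicates 2 or 3 (limma adjusted p between 0.061 and 0.0924). Hspa1b, the inducible Hsp70, likewise looked up, had a shift of 0.69 in log2 signal (limma adjusted p = 0.333).

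The unfolded protein and integrated stress response list had 0 genes that rose of 44 and 1 that fell (2.27% called, against 2.12% of all genes). This was Atf5, a stress transcription factor, which read 1502, 1261 and 1651 in the controls and 911, 873 and 912 with permethrin and fell 1.63-fold (limma adjusted p = 0.0169), lost without control replicates 1 or 3 or permethrin replicates 2 or 3 (limma adjusted p between 0.0556 and 0.0857). In the cytoskeleton list 2 of 74 rose and 0 fell (2.70% called, against 2.12% of all genes, and 1 to 3 higher over the omissions). The tubulin Tubb4b read 698, 1028 and 922 in the controls and 2204, 1538 and 1737 with permethrin and rose 2.07-fold (log2 change 1.05 ± 0.17, limma adjusted p = 0.0109), on 1 of 3 probe sets. On the probe set with the highest variance its log2 change was 0.45 and not called. The dynein light chain Dynll1 rose 1.71-fold (limma adjusted p = 0.00957), lost without control replicate 1 (limma adjusted p = 0.0511). Tmed5, of transport between the endoplasmic reticulum and the Golgi, was picked after its values were seen. It went from 610.4 ± 75.5 in controls to 1562 ± 168 with permethrin and rose 2.56-fold (log2 change 1.35 ± 0.17, limma adjusted p = 0.00228), on 2 of 4 probe sets. On the one with the highest variance it was not called.

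Of 57 autophagy and lysosome genes 1 rose and 0 fell (1.75% called, against 2.12% of all genes). Atg12, which helps form the autophagosome, read 139, 133 and 175 in the controls and 246, 238 and 235.05 with permethrin and rose 1.61-fold (limma adjusted p = 0.0368), lost without control replicates 1 or 2 or permethrin replicates 1, 2 or 3 (limma adjusted p between 0.0806 and 0.147). On its probe set with the highest variance the log2 change was -0.33. In the vesicle traffic list 2 of 84 rose and 1 fell (3.57% called, against 2.12% of all genes, and 0 to 1 in either direction over the omissions). Rab30, a GTPase of the Golgi, rose 2.35-fold (limma adjusted p = 0.0356), lost without control replicates 2 or 3 or permethrin replicates 2 or 3 (limma adjusted p between 0.104 and 0.141), and Rab9, of traffic from late endosomes to the Golgi, rose 1.48-fold (limma adjusted p = 0.02), lost without control replicates 1 or 3 or permethrin replicates 1 or 2 (limma adjusted p between 0.0619 and 0.102). Rab17, a GTPase of polarized epithelial traffic, fell 1.51-fold (limma adjusted p = 0.0444), lost without any 1 of the 6 arrays (limma adjusted p between 0.0533 and 0.182).

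Among glycosylation genes 2 of 66 rose and 0 fell (3.03% called, against 2.12% of all genes, and 1 to 2 over the omissions). Pmm1, a phosphomannomutase, read 21.8, 33.2 and 21.9 in the controls and 86.9, 68.7 and 87.4 with permethrin and rose 2.94-fold (log2 change 1.56 ± 0.24, limma adjusted p = 0.00854) on both probe sets. Cmas, which activates sialic acid, rose 1.49-fold (limma adjusted p = 0.025), lost without control replicates 1, 2 or 3 or permethrin replicates 1 or 3 (limma adjusted p between 0.0621 and 0.121).

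No gene was called by limma in 11 of the 50 function lists. These were the lists of the circadian clock, cell cycle, p53 and apoptosis, ubiquitin ligases, ribosomal proteins, splicing, respiratory chain, TCA cycle, bile acids, nuclear receptors and chromatin. With an unadjusted p under 0.05, the clock list had 0 of 23 genes with a rise and 3 with a fall. Among its members with the smallest p was the clock output repressor Bhlhe40, which read 336, 274 and 279 in the controls and 87.3, 157 and 203 with permethrin. Control and permethrin arrays did not overlap, but permethrin arrays were spread, with a shift of -1.05 in log2 signal (limma adjusted p = 0.129). The core clock genes Arntl and Nr1d1 were looked up after the values were seen. Arntl had a shift of -0.13 in log2 signal (limma adjusted p = 0.869), and Nr1d1 a shift of -0.17 in log2 signal (limma adjusted p = 0.93). In the cell cycle list 2 of 45 genes had an unadjusted p under 0.05 with a rise and 3 with a fall, and in the p53 list 4 and 2 of 43. The respiratory chain list had 4 and 4 of 62 and the bile acid list 3 and 7 of 34. Both bile acid genes with the smallest p had large changes that did not pass. Cyp39a1, an oxysterol hydroxylase, read 334, 104 and 302 in the controls and 64.1, 90.5 and 47.3 with permethrin, a shift of -1.71 in log2 signal (limma adjusted p = 0.0789), and Slc22a7, an organic anion transporter, read 519, 476 and 969 in the controls and 239.6, 148 and 228 with permethrin, a shift of -1.61 in log2 signal (limma adjusted p = 0.0675). Among mitochondrial carriers, the dicarboxylate carrier Slc25a10 read 934, 883 and 1051 in the controls and 1417, 1542 and 1629 with permethrin, a shift of 0.68 in log2 signal (limma adjusted p = 0.0542). A gene that misses the threshold with 3 arrays per group has not been shown to be equal between the diets.

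**Figure D4:**
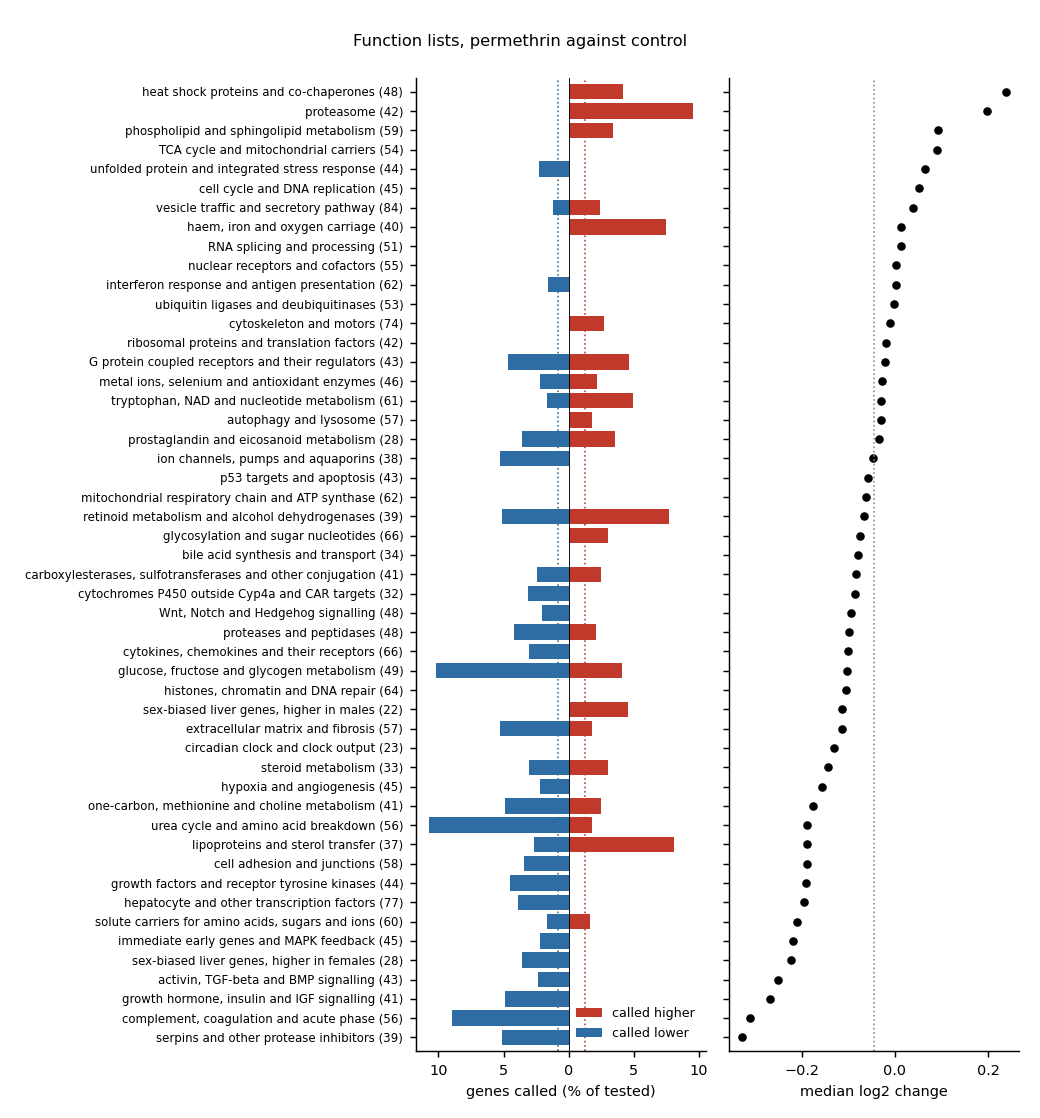
The 50 function lists ordered by their median log2 change, with the number of genes tested in brackets; bars give the percent of tested genes called higher (red) and lower (blue) with permethrin, and points the median log2 change. Dotted lines mark the shares over all genes, 1.28% higher and 0.842% lower, and the median over all genes, -0.04; heat shock and proteasome genes lie at the upper end and complement and serpin genes at the lower end.

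Called genes in none of the lists numbered 111, of which 65 rose and 46 fell, and 26 of the 111 held without any 1 array. Picked from them after their values were seen, Baiap2l1, an adaptor of the actin cytoskeleton, read 70.8, 82.5 and 74.4 in the controls and 207, 164 and 294 with permethrin and rose 2.77-fold (log2 change 1.47 ± 0.20, limma adjusted p = 0.00399) on both probe sets. Serinc2, a membrane protein of the serine incorporator family, read 48.4, 38.5 and 70.0 in the controls and 127, 145 and 163 with permethrin and rose 2.73-fold (log2 change 1.45 ± 0.20, limma adjusted p = 0.00422). The probe set assigned to Rad51b, a gene of DNA repair, read 163, 147 and 222 in the controls and 452, 479 and 577 with permethrin and rose 2.83-fold (limma adjusted p = 0.00156). A further 26 called probe sets, 12 higher and 14 lower, are not assigned to a gene here.

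Several tested probe sets were assigned to each of 127 called genes. At least 2 probe sets were called in 48 of these and all of them in 33. No gene had probe sets called in opposite directions. In 38 genes a probe set other than the brightest was called and the brightest was not, and these are not in the 265.

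The diet with clofibrate at the same dose and time gives a direct test of which genes differed between the compounds. The comparison of each with control shares the control arrays. Against control, clofibrate gave list medians of -0.42 for complement and coagulation and -0.43 for protease inhibitors, where permethrin gave -0.31 and -0.33. For growth hormone and IGF signalling, transcription factors and amino acid breakdown, clofibrate gave -0.26, -0.16 and -0.23. Permethrin gave -0.27, -0.20 and -0.19. Of the 12477 genes, 92 differed between permethrin and clofibrate (0.737%), and 22 of the 265 genes changed by permethrin were among them. In the unfolded protein and integrated stress response list 7 of 44 genes were higher with permethrin than with clofibrate and 0 were lower, and in the list of vesicle traffic and secretion 5 of 84 and 0. From these lists 9 genes were picked after their values were seen, and 0 of the 9 were called against control. Hspa5, the main chaperone of the endoplasmic reticulum, read 3708, 5191 and 4190.5 in the controls and 5385, 4649 and 6069 with permethrin and 2777, 3081 and 3121 with clofibrate. The permethrin arrays overlapped the controls and the clofibrate arrays lay below both. The log2 difference, permethrin minus clofibrate, was 0.84 ± 0.13 (limma adjusted p = 0.0203), and its call ended without permethrin replicates 1 or 3 or clofibrate replicates 2 or 3 (limma adjusted p between 0.0535 and 0.0897). Against control it had a shift of 0.30 in log2 signal (limma adjusted p = 0.346).

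Spcs3, a subunit of the signal peptidase, read 613, 644 and 624 in the controls and 647, 648 and 736 with permethrin and 302, 338 and 329 with clofibrate. Permethrin arrays lay at or slightly above the controls and clofibrate arrays far below. Its difference was 1.06 ± 0.11 (limma adjusted p = 0.00157), called in all 21 alternatives. Serp1, which protects proteins at the translocon, differed by 0.97 ± 0.11 (limma adjusted p = 0.00345), Sec24d, a coat protein of export vesicles, by 1.05 ± 0.12 (limma adjusted p = 0.00345), and Lman1, a cargo receptor, by 0.78 ± 0.09 (limma adjusted p = 0.00492). The chaperone Hyou1 differed by 1.18 ± 0.12 (limma adjusted p = 0.00221). The calls of these 4 held without any 1 array. Of 19 genes named as different between the diets, scaling to the hybridization controls kept 6.

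From the 22 genes changed by permethrin that also differed from clofibrate, the following are given as 3 patterns seen in their values. Serinc2 and Rad51b rose less with permethrin than with clofibrate, with differences of -1.34 ± 0.20 (limma adjusted p = 0.0145) and -1.14 ± 0.18 (limma adjusted p = 0.0169). Slc16a13, of the monocarboxylate transporter family, read 23.7, 27.1 and 22.1 in the controls and 64.7, 48.1 and 64.8 with permethrin and 141, 119 and 100.5 with clofibrate. It rose 2.25-fold (limma adjusted p = 0.00993) against control, lost without permethrin replicate 3 (limma adjusted p = 0.0504), and differed by -0.98 ± 0.19 (limma adjusted p = 0.0448). In the second pattern the gene was higher with permethrin and near the controls with clofibrate. Adgra3, an adhesion receptor, read 120.1, 165 and 136 in the controls and 293, 272 and 242 with permethrin and 152, 145 and 137 with clofibrate, and differed by 0.88 ± 0.15 (limma adjusted p = 0.0246). Bet1, a SNARE of vesicle fusion, read 275, 288 and 328 in the controls and 584, 489 and 511 with permethrin and 291, 240.2 and 276 with clofibrate, with a rise of 1.77-fold (limma adjusted p = 0.0093) against control, lost without control replicate 1 (limma adjusted p = 0.0537), and a difference of 0.96 ± 0.13 (limma adjusted p = 0.00869). In the third pattern clofibrate arrays were lower than permethrin arrays, themselves below the controls. C1s1 read 654, 626 and 584 with clofibrate, a difference of 0.71 ± 0.13 (limma adjusted p = 0.0347). Ces1c, a carboxylesterase, read 10668, 10309 and 10939.8 in the controls and 7752, 8326 and 6945 with permethrin and 4635, 5161 and 4693 with clofibrate, fell 1.39-fold (limma adjusted p = 0.0224) against control, lost without control replicates 1, 2 or 3 or permethrin replicates 1 or 3 (limma adjusted p between 0.0631 and 0.108), and differed by 0.67 ± 0.09 (limma adjusted p = 0.00869). Hlx stood apart from these patterns. It read 24.3, 24.4 and 27.2 with clofibrate, above all permethrin arrays, a difference of -1.48 ± 0.28 (limma adjusted p = 0.0432). In omissions of 1 permethrin or clofibrate array, the calls ended for Serinc2 without permethrin replicate 1 or clofibrate replicates 2 or 3 (limma adjusted p = 0.0547, 0.0548 and 0.0897), for Rad51b without permethrin replicates 1 or 2 or clofibrate replicate 3 (limma adjusted p = 0.0638, 0.0627 and 0.0638), for Slc16a13 without any 1 of the 6 arrays (limma adjusted p between 0.0811 and 0.135), for Adgra3 without permethrin replicates 1 or 2 or clofibrate replicates 2 or 3 (limma adjusted p between 0.0681 and 0.134), for Bet1 without clofibrate replicate 3 (limma adjusted p = 0.0513), for C1s1 without permethrin replicates 2 or 3 or clofibrate replicates 2 or 3 (limma adjusted p between 0.0817 and 0.162) and for Hlx without any 1 of the 6 arrays (limma adjusted p between 0.0638 and 0.18).

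**Figure D5:**
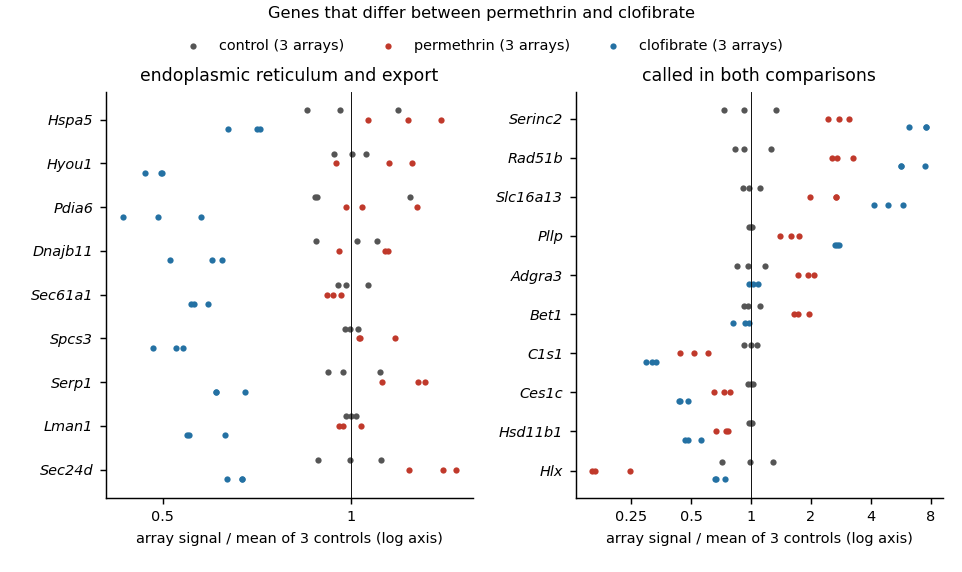
Signal of each control (grey), permethrin (red) and clofibrate (blue) array divided by the mean of the 3 controls, on a log axis, for 9 genes of the endoplasmic reticulum and protein export (left) and 10 genes called both against control and against clofibrate (right). On the left, clofibrate arrays lie below all control and permethrin arrays; on the right, Adgra3 and Bet1 are high with permethrin and near the controls with clofibrate.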

How the data were processed

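Total RNA of liver was labelled and hybridized to 9 Affymetrix mouse arrays, per the labels' protocols. The deposited values are linear intensity signals that the authors made with MAS5, per the submitters' processing notes; no version or setting of it is given in the sources used here, and the trimmed mean of each array was 100.001. Of 45101 rows, 64 control probe sets were left out, and 34945 of the rest had 1 gene in the platform annotation. Signals were transformed to log2(signal + 3.35), the offset being the 20th percentile of all signals. The 24548 probe sets above 15.6, the median of all signals, on at least 3 arrays were fitted with limma 3.58.1 (R 4.3.3) on all 9 arrays, with group means and an intensity trend, and p-values were adjusted by Benjamini-Hochberg over all of them. Where a gene had several tested probe sets, the one brightest on average (log2) stood for it. Genes were named by rule: the 16 largest rises and 16 largest falls outside the lists set aside, up to 4 called members of each function list, and up to 2 members with the smallest p of a list with 0 called. Other genes are said to be picked or looked up after their values were seen. The members and lists were chosen with earlier results of these data known. The fit was tested on simulated data. The main fit did not pair arrays by replicate number.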

Additional observations from a re-analysis of the deposited data

Results flagged for a closer look

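The difference between the permethrin and the clofibrate diets passed the test for 19 of the genes named, each with 3 arrays per diet. Values are log2 differences, permethrin minus clofibrate, with limma p-values adjusted over all tested probe sets. In the endoplasmic reticulum and protein export, permethrin was higher for Hspa5 at 0.84, Hyou1 at 1.18, Pdia6 at 1.13, Dnajb11 at 0.89, Sec61a1 at 0.72, Spcs3 at 1.06, Serp1 at 0.97, Lman1 at 0.78 and Sec24d at 1.05. The vesicle SNARE Bet1 was higher at 0.96 and the adhesion receptor Adgra3 at 0.88. C1s1 was higher at 0.71, Ces1c at 0.67 and Hsd11b1 at 0.53, all 3 below control on both diets. Permethrin was lower for Serinc2 at -1.34, Rad51b at -1.14, Slc16a13 at -0.98 and Pllp, a myelin and epithelial membrane protein, at -0.77, all 4 above control on both diets, and for Hlx at -1.48. The calls of Hyou1, Lman1, Sec24d, Serp1 and Spcs3 held without any 1 of the 6 arrays compared. Over all 21 alternatives, each of these differences kept its sign. Hyou1 ranged from 0.43 to 1.29 and was called in 18, Sec61a1 from 0.27 to 0.77 and in 17, and Hlx from -1.74 to -0.85 and in 7.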

How the results depend on the processing

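The count of genes called against control was 265. Scaling to the hybridization controls gave 165 and dropping the intensity trend gave 79, and leaving out 1 array gave 108 to 189, lowest without control replicate 1. Array weights gave 311, the 6 arrays alone 289, no filter 201, and a replicate block 204. Deviations of same-numbered arrays from their group means correlated at -0.109 to 0.113. Differently numbered arrays were not compared, so this check cannot decide whether replicate numbers pair the arrays. Against clofibrate the count was 92. It was 43 with scaling to the hybridization controls, 10 without the trend, 226 with array weights, 48 with the 6 arrays alone and 17 to 119 with 1 array left out, lowest without clofibrate replicate 3. On the probe set with the highest variance, Atg12 turned to -0.33 and Pla2g6 to -0.20, and the cause was not tested. Of 153 named genes called, 33 were called under all 21 alternatives, among them Apoa4, C1s1, Cela1, Chdh, Csad, F7, Inhba, Osbpl3, Pklr, Pltp, Retsat and Slc39a5. Pctp and Ptgds were not called without the trend or with a robust trend, at unchanged log2 changes. Calls that ended over the mean of a gene's probe sets included Cfhr2, Dpp7, Fn1, Gm10658, Hfe, Hsp90aa1, Il6ra, Rcan2, Slc39a8 and Uroc1. Those that ended on the probe set with the highest variance included Cbs, Cdh2, Dpp7, Fn1, Foxq1 and Hfe. With 3 arrays per group, dim genes and changes under 2-fold are the least precise.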
